A study of Mus musculus with 6 samples.

Results

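The genes examined were 10 that encode enzymes of glycolysis and the enzyme that makes lactate from its end product. They are Hk1, Hk2, Gpi1, Pfkl, Aldoa, Gapdh, Pgk1, Eno1, Pkm and Ldha, taken by gene symbol from a table of 26699 genes, and all 10 passed the filter on low counts together with 16843 genes in all. The symbol Aldoa stood on 2 rows, one of them a second gene model of 6 to 15 reads per library, so that the 10 symbols had 11 rows; the main Aldoa row is the one described.

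Polyadenylated RNA was sequenced from mouse bone marrow macrophages driven towards osteoclasts, the cells that resorb bone. The conditional knockout cells (cKO) came from LysmCre-Slc11a2flox/flox mice, in which Cre from the lysozyme M promoter, active in the myeloid lineage, deletes Slc11a2 (DMT1, a ferrous iron transporter), and the control cells from Slc11a2flox/flox litters without Cre. Marrow of mice aged 8 weeks was expanded in 10 ng/mL M-CSF, and the cells of both genotypes then received 30 ng/mL M-CSF plus 50 ng/mL of RANKL, which sets off osteoclast differentiation, for 48 hours. Each genotype had 3 libraries. Since only the cKO cells carried Cre, effects of Cre or of its insertion and effects of losing Slc11a2 cannot be told apart. The labels do not tie the libraries to separate mice or cultures, so the p-values below rest on a spread between libraries that may be technical.

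Glycolysis splits glucose into pyruvate in the cytosol and yields ATP without oxygen. Hexokinases trap glucose by phosphorylating it, phosphofructokinase commits it to the pathway, aldolase cleaves the sugar, and the later enzymes harvest ATP and NADH; lactate dehydrogenase then turns pyruvate into lactate and regenerates NAD. Osteoclast precursors are known to raise both glycolysis and mitochondrial respiration as they differentiate, and many glycolytic genes, Pgk1, Eno1 and Ldha among them, are known targets of hypoxia-inducible factor, which binds ACGTG or GCGTG.

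The upstream stretches of Pgk1, Eno1 and Ldha are shown. Pgk1 was the member that passed the test of genotype, and all 10 members had a negative log2 fold change. Eno1 and Ldha had no overlap between genotypes, which also held for Aldoa and Gpi1, whose stretches are not shown. Each line holds the 250 bases before a RefSeq transcript start in GRCm38.p6, 5′ to 3′ on the plus strand, and capitals mark ACGTG or GCGTG read on either strand. The coordinates are chrX:106186850-106187099 for Pgk1, chr4:150236458-150236707 for Eno1 and chr7:46845554-46845803 for Ldha.
Pgk1: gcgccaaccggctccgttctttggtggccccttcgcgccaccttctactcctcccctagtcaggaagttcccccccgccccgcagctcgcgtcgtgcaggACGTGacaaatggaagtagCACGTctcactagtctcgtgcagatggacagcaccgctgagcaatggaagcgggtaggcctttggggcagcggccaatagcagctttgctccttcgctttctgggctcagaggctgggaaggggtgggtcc
Eno1: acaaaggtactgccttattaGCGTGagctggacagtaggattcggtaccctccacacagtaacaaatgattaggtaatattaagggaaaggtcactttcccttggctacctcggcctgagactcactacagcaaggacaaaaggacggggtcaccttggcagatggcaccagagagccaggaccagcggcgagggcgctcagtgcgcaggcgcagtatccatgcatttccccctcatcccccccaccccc
Ldha: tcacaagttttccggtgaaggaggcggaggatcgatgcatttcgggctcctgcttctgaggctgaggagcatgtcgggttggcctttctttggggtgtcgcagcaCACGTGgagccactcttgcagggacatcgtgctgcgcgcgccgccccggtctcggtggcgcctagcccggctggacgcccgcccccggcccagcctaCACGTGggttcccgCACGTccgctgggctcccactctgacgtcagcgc

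The Pgk1 stretch held 2 matches, at 150 and 131 bases before the start, facing opposite ways. Eno1 had 1 match there, and Ldha had 5. Of these 5, 4 were the 2 palindromes CACGTG read on both strands, a word that is itself an E-box motif. Over RefSeq windows of 300 bases, which add 50 bases after the start, the motif was in 13 of 17 windows of the members (76.5%), some of which overlap each other, and in 43.8% of 32851 windows of all genes. Every member except Gpi1 had a window with a match, though the most upstream windows of Aldoa, Pkm and Hk1 had 0. Members with several windows had more sequence in which to match. The share of all genes with a match in any window was not computed. These are matches of letters, not measured binding.

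The data behind the values were deep and even. Total counts were 49720701 to 55279336 reads in the cKO libraries and 52989755 to 57797282 reads in the control libraries. Slc11a2 itself stood at 78.3, 82.8 and 87.4 CPM (counts scaled to a common library total, by TMM) in the cKO libraries and at 119, 110 and 118 CPM in the control libraries, so that it fell by 0.48 ± 0.06 on a log2 scale in edgeR (adjusted p = 0.00219); the sources used here do not name the floxed exons. Lyz2, the lysozyme M gene whose promoter drives Cre, fell by 1.14 ± 0.08 (adjusted p = 9.39e-06). Over all genes edgeR called 407 at an adjusted p below 0.05, 229 higher and 178 lower in cKO cells. That split became 265 and 131 with upper-quartile scaling, 268 and 114 with library totals alone and 256 and 112 with a trend over gene length removed, and with 1 library left out the calls numbered between 59 (without cKO replicate 1) and 624 (without cKO replicate 3). Summed macrophage markers were 6219 to 6727 CPM in cKO libraries and 6431 to 6947 CPM in control libraries, and all 6 were detected. Summed osteoclast markers were 9139, 8535 and 12212 CPM in cKO replicates 1 to 3 and 12831, 11787 and 15309 CPM in control replicates 1 to 3. Mmp9 made up 47.5% of the sum, and none of the 10 passed the edgeR test. In bulk RNA, fewer cells of a type and less RNA per cell cannot be told apart.

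Most glycolytic transcripts were abundant in these cells, and in cKO cells 5 of the 10 stood slightly below control without overlap. Pgk1 fell by 0.30 ± 0.06 on a log2 scale in edgeR (adjusted p = 0.0236), a fitted change of -18.7%. It was the only member called: 1 of 10 genes lower and 0 higher, where 1.06% of all genes were called lower and 1.36% higher (2.42% in either direction). DESeq2 called 3 members lower and limma-voom the same 3, Aldoa, Pgk1 and Eno1, where they called 2.64% and 2.10% of all genes lower. All 10 members had negative log2 fold changes, against 49.6% of all genes, and their median was -0.17, against 0.00 for all genes tested. With Gapdh left out, the other 9 were all negative, with a median of -0.17. The members were chosen with earlier results of these data known, so these counts are not a test. In 5 members, Gpi1, Aldoa, Pgk1, Eno1 and Ldha, every cKO library lay below every control library, a separation seen in 11.4% of all genes, and the same 5 had an unadjusted p below 0.05 (8.79% of all genes did, with cKO lower). The differences are small: apart from Gapdh, whose row is not a measure of its expression here, the fitted changes ran from -18.7% for Pgk1 to -2.55% for Pkm.

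**Figure D1:**
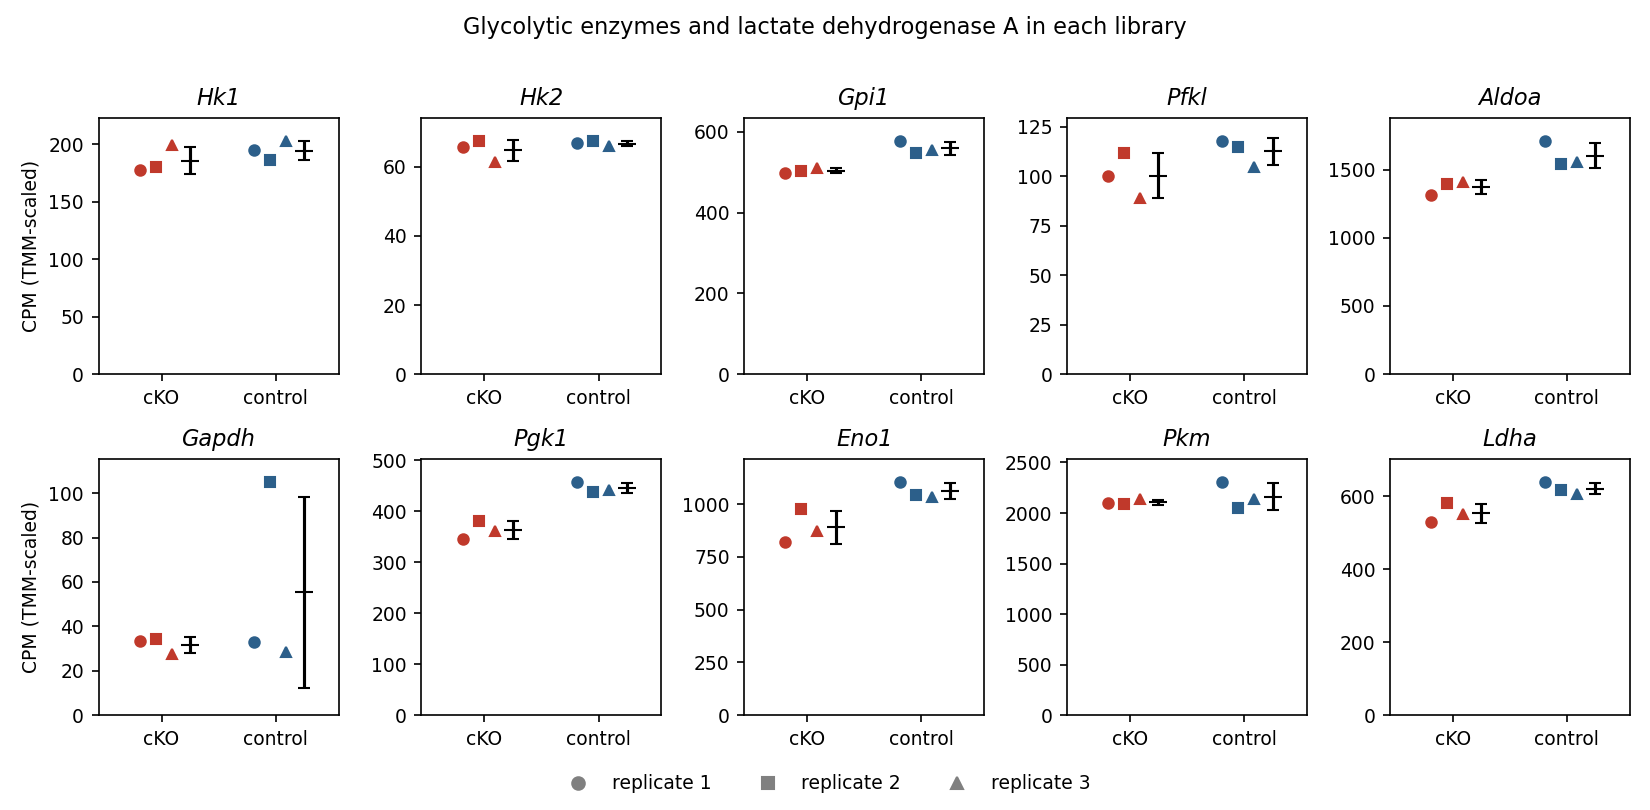
TMM-scaled CPM (y axis, from 0) of each of the 10 genes in every library, cKO left of control; symbols mark the replicate and the black bar gives the mean ± SD over 3 libraries. Gpi1, Aldoa, Pgk1, Eno1 and Ldha have no overlap between genotypes, Hk1, Hk2, Pfkl and Pkm overlap, and control replicate 2 of Gapdh stands alone at 105 CPM.

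Levels between genes were compared in the authors' FPKM, which scale reads by gene length. With Gapdh set aside, since its own row does not measure it, Aldoa was the most abundant member at a mean of 443 FPKM over the 6 libraries, rank 54 of all genes, and Pkm followed at 370 FPKM, rank 64, below Aldoa in each library. Eno1, Pgk1 and Ldha came next at 157, 156 and 154 FPKM. In cKO cells these 3 neighbours did not differ beyond their spread, while in control cells every Eno1 and Pgk1 value was above every Ldha value. In cKO cells they averaged 144 ± 14.5, 140.5 ± 8.58 and 146 ± 8.71 FPKM, and in control cells 170.3 ± 5.57, 171 ± 3.64 and 162 ± 3.55 FPKM (SD, n = 3 each). Gpi1 averaged 71.5 FPKM. The enzymes at the entry were far lower, with Hk1 at 19.3 FPKM, Pfkl at 13.8 FPKM and Hk2 at 9.56 FPKM. Gapdh was listed at 9.12 FPKM, a mean raised by control replicate 2, and was below Hk2 in the other 5 libraries.

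Glucose enters the pathway through hexokinase, and neither hexokinase among the members differed detectably. Hk1 (chr10:62268855-62379908, minus strand, mm10), the widely expressed form, had 178, 180 and 199 CPM in cKO libraries and 195, 186 and 203 CPM in control libraries. The groups overlapped, with a log2 fold change of -0.07 ± 0.06 (adjusted p = 0.641, edgeR), which ran from -0.12 without cKO replicate 3 to -0.033 without control replicate 3. Hk2 (chr6:82725025-82774454, minus strand), the form known to be induced in proliferating and activated cells, had 65.7, 67.5 and 61.6 CPM in cKO libraries and 66.9, 67.4 and 66.0 CPM in control libraries. Its groups overlapped too, at -0.04 ± 0.06 (adjusted p = 0.777), and the 95% interval of the difference ran from -0.16 to 0.08; without cKO replicate 2 it was -0.070 and without cKO replicate 3 -0.0041.

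Gpi1 (chr7:34201330-34230336, minus strand) encodes the isomerase that turns glucose phosphate into fructose phosphate. It had 499.6, 503 and 510.2 CPM in cKO libraries and 577, 547 and 555 CPM in control libraries. The genotypes did not overlap, and the libraries within each lay close together, but the difference of -0.15 ± 0.05 did not pass (adjusted p = 0.183, edgeR). Pfkl (chr10:77986947-78009807, minus strand), the liver-type phosphofructokinase that catalyses the committed step, had 100.2, 112 and 89.0 CPM in cKO libraries and 118, 115 and 105 CPM in control libraries. cKO replicate 2 lay inside the control range, and the difference of -0.17 ± 0.08 did not pass (adjusted p = 0.3204). It was -0.25 without cKO replicate 2 and -0.087 without cKO replicate 3.

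Aldoa (chr7:126795234-126800751, minus strand), the main aldolase outside liver and brain, cleaves fructose bisphosphate into trioses. It had 1314, 1394 and 1411 CPM in cKO libraries and 1711, 1544 and 1558 CPM in control libraries. All cKO libraries were below all control libraries, and control replicate 1 was the highest. The difference was -0.22 ± 0.06 with an adjusted p of 0.0958 in edgeR, and it passed in DESeq2 (adjusted p = 0.0105) and in limma-voom (adjusted p = 0.0311). Those were the 2 that passed of 9 other choices of scaling, test, filter, design or length correction. With the length trend removed it was -0.16 (adjusted p = 0.170, edgeR). It passed in 0 of the 6 fits with a library left out.

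Pgk1 (chrX:106187100-106203699, plus strand) encodes phosphoglycerate kinase, the first enzyme of the pathway to make ATP. It had 345, 380 and 361 CPM in cKO libraries and 457, 437 and 442 CPM in control libraries, which is 362 ± 17.6 CPM in cKO cells and 445 ± 10.1 CPM in control cells (SD, n = 3 each). Every cKO library was below the lowest control library, and the adjusted p was the smallest among the members. The call held under each of the 9 other choices of scaling, test, filter, design or length correction, with the smallest change, -0.21 (adjusted p = 0.0423), once the trend over gene length was removed. It was lost without cKO replicate 1 (adjusted p = 0.175), control replicate 1 (0.102), control replicate 2 (0.0636) or control replicate 3 (0.0915), where the fold changes ran from -0.32 to -0.26. Pgk1 also has 2 processed copies, Pgk1-rs7 and Gm5537, whose sequence matched its coding sequence at 100% identity; they took 4.43% to 5.38% of the family's reads, and the summed family gave -0.29 ± 0.06 (adjusted p = 0.0236).

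Eno1 (chr4:150236721-150248879, plus strand) encodes alpha-enolase, which makes phosphoenolpyruvate. It had 822, 977 and 873 CPM in cKO libraries and 1104, 1043 and 1035 CPM in control libraries. The groups did not overlap, with cKO replicate 2 the closest to control, and the difference of -0.25 ± 0.07 did not pass in edgeR (adjusted p = 0.0906). It passed in DESeq2 (0.0126), in limma-voom (0.0254) and in edgeR without cKO replicate 2 (0.0370). Of the 6 fits with a library left out, only that 1 passed. Without cKO replicate 1 the difference was -0.20 (adjusted p = 0.374, edgeR). The 3 near-identical genes, Eno1b, Gm4735 and Gm5855, shared 9.64% to 11.0% of the reads of the family, and the summed family gave -0.24 ± 0.07 (adjusted p = 0.0874).

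Pkm (chr9:59656368-59679375, plus strand) encodes pyruvate kinase, which makes pyruvate and the last ATP of the pathway; its splice forms cannot be read from gene counts. It had 2098, 2089 and 2137 CPM in cKO libraries and 2305, 2045 and 2140 CPM in control libraries. The groups overlapped at -0.04 ± 0.06 (adjusted p = 0.817, edgeR), with a 95% interval from -0.16 to 0.09, and without control replicate 1 the value turned to 0.013. Ldha (chr7:46841475-46855627, plus strand), the lactate dehydrogenase subunit that favours making lactate, had 529, 581 and 550.4 CPM in cKO libraries and 639, 617 and 608 CPM in control libraries. Its groups did not overlap, and the difference of -0.17 ± 0.06 did not pass (adjusted p = 0.171, edgeR). With the length trend removed it was -0.11 (adjusted p = 0.280, edgeR).

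Gapdh (chr6:125161715-125165773, minus strand), the dehydrogenase that makes NADH and is a common reference gene, could not be read from its own row. That row held 1673, 1916 and 1478 reads in cKO libraries and 1706, 6018 and 1634 reads in control libraries, with control replicate 2 far above the other 5 libraries. The log2 fold change of -0.80 ± 0.62 (adjusted p = 0.603, edgeR) rested on that library and was 0.047 (adjusted p = 0.884) without it. A search of its coding sequence against GENCODE M21 transcripts, at 95% identity or more over at least 80% of the length, found 68 other genes of the table on 20 chromosomes. Together these copies held 94.25% to 98.39% of the reads of the family, and 29 of them had at least 100 reads in every library. The largest, Gm7336 on chromosome 7 at 100% identity, had 12994, 16111 and 14798 reads in cKO libraries and 16045, 15500 and 16288 reads in control libraries. How reads with several matches were counted is not stated in those sources, so reads of Gapdh and of its copies cannot be told apart.

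Summed over Gapdh and its copies, the family was at 1632, 1762 and 1668 CPM in cKO libraries and at 1940, 1824 and 1774 CPM in control libraries. On that sum control replicate 2 no longer stood apart, and no cKO library reached a control library. The difference was -0.13 ± 0.06 (adjusted p = 0.322), in a fit with the members' families merged that was chosen after the data were seen. Of 48 copy rows tested, 35 had a negative fold change and none was called by edgeR.

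**Figure D2:**
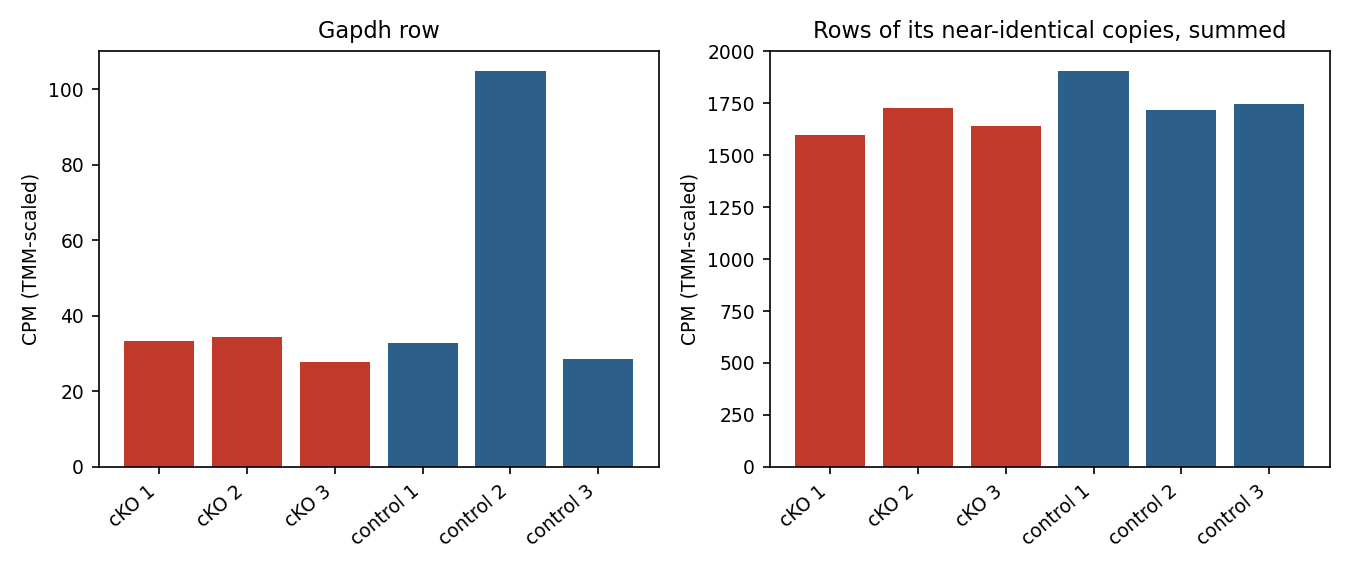
TMM-scaled CPM (y axes, from 0, on different scales) of the Gapdh row (left) and of its 68 near-identical copies summed (right) in each library, cKO first; bars are single libraries. Control replicate 2 stands alone in the Gapdh row at 105 CPM, while the copies lie between 1599 and 1908 CPM in all 6 libraries.

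Among the steps and isozymes outside the 10 genes, some lay below control and some above, none of them past the edgeR threshold. Of 16 such genes tested, 0 were called in either direction, 6 had an unadjusted p below 0.05 and 4 passed in DESeq2; 10 were negative and 6 positive, with a median of -0.08. Of all genes tested, 17.2% had an unadjusted p below 0.05 and 5.19% passed in DESeq2, in either direction, and the counts of the lists below stand against the same shares. Tpi1, the triose phosphate isomerase, had 266, 317 and 274 CPM in cKO libraries and 360, 347 and 325 CPM in control libraries. It lay lower in every cKO library at -0.27 ± 0.07 (adjusted p = 0.0824, edgeR), and passed in DESeq2 at 0.0155. Of the 9 other choices of scaling, test, filter, design or length correction, 3 called it, DESeq2 included. With the length trend removed it was -0.20 (adjusted p = 0.133, edgeR). Pgam1, the phosphoglycerate mutase between Pgk1 and Eno1, had 455, 492 and 456 CPM in cKO libraries and 557, 519 and 528 CPM in control libraries. It too was lower without overlap, at -0.19 ± 0.06 (adjusted p = 0.121; 0.0350 in DESeq2), but at -0.098 (adjusted p = 0.336) with the length trend removed.

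Hk3 and Eno2 lay on the other side of 0. Hk3, the hexokinase of myeloid cells, had 190.2, 215 and 184 CPM in cKO libraries and 171, 171 and 148 CPM in control libraries. Eno2, the gamma-enolase best known from neurons, had 8.06, 13.2 and 9.17 CPM in cKO libraries and 4.84, 7.18 and 5.49 CPM in control libraries. Both were higher in every cKO library, at 0.26 ± 0.08 for Hk3 (adjusted p = 0.0970, edgeR) and 0.80 ± 0.20 for Eno2 (adjusted p = 0.0691), and DESeq2 called both (0.0243 and 0.00484). Each was called under 3 of the 9 other choices of scaling, test, filter, design or length correction, DESeq2 included. Neither was called in any of the 6 fits with a library left out. Without cKO replicate 2, edgeR gave 0.20 for Hk3 (adjusted p = 0.208) and 0.56 for Eno2 (adjusted p = 0.166). Neutrophil transcripts moved the same way. The summed neutrophil markers were 47.0 to 60.8 CPM in cKO libraries and 20.5 to 25.7 CPM in control libraries. Of 6 tested, 4 were called higher (Ngp, Ltf, S100a8 and S100a9), and Ly6g had no row. The part of neutrophils in the values of Hk3 and Eno2 was not tested.

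None of the other isozymes above 1 FPKM passed in edgeR or DESeq2. Ldhb, the lactate dehydrogenase subunit that favours using lactate, had 51.2, 52.3 and 63.2 CPM in cKO libraries and 67.8, 60.5 and 74.6 CPM in control libraries, which overlapped at -0.28 ± 0.10 (adjusted p = 0.160) and gave -0.17 with the length trend removed. Eno1b, one of the near-identical copies of Eno1, was lower without overlap at -0.22 ± 0.06 (adjusted p = 0.0927). With the length trend removed it was at -0.12. Eno3, the muscle enolase, was at 0.26 ± 0.17 (adjusted p = 0.495; 0.14 without control replicate 1) and Pfkp, the platelet phosphofructokinase, at 0.07 ± 0.06 (adjusted p = 0.557; 0.048 without control replicate 3 and 0.028 with the length trend removed). Adpgk, a glucokinase that uses ADP, was lower without overlap at -0.14 ± 0.07 (adjusted p = 0.368). It was at -0.087 without cKO replicate 1. Pfkm, Aldoc, Pgam2 and Bpgm lay between -0.09 and 0.04, with adjusted p of 0.771 to 0.955, and each of them changed sign when some library was left out.

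**Figure D3:**
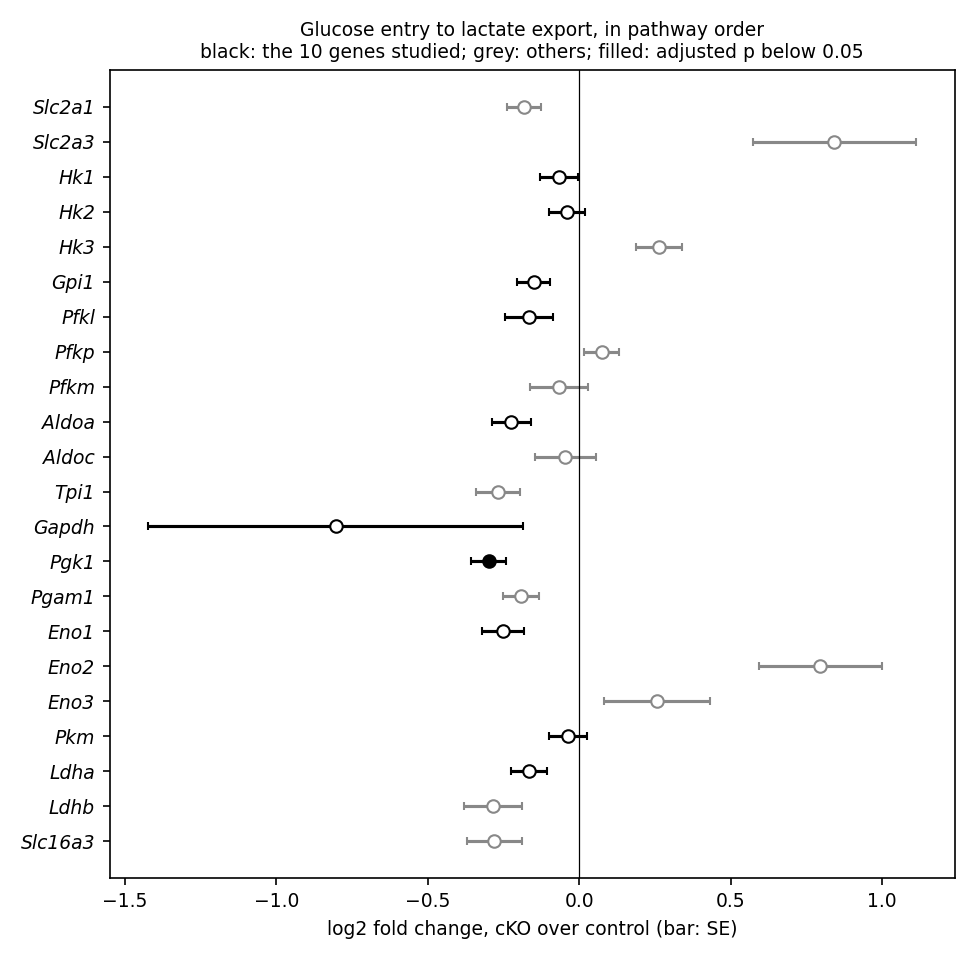
Log2 fold change of cKO over control (x axis; bars are the SE of the edgeR fit) for 22 genes from glucose entry to lactate export, top to bottom; black marks the 10 members, grey the other genes and a filled point an adjusted p below 0.05. Pgk1 at -0.30 is the only filled point, Gapdh has the widest error, and Slc2a3, Hk3, Pfkp, Eno2 and Eno3 lie above 0.

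Within each isozyme family, the mix was described by the share of the summed FPKM. Hk3 held the larger part of the hexokinase FPKM, 61.9% ± 2.20 in cKO cells and 56.5% ± 2.62 in control cells (SD, n = 3 each). Hk2 held 12.6% ± 0.465 in cKO cells and 14.3% ± 0.413 in control cells. Hk1 held 25.4% ± 2.33 in cKO cells and 29.1% ± 2.22 in control cells. The shares of Hk3 and Hk2 did not overlap between genotypes and those of Hk1 did. Pfkl held 49.7% ± 3.42 of the phosphofructokinase FPKM in cKO cells and 52.8% ± 1.31 in control cells, which overlapped. Pfkp held 28.1% ± 1.49 in cKO cells and 25.3% ± 0.165 in control cells, which did not. The difference in the Pfkl share, -3.11 percentage points, was -1.15 without cKO replicate 3, and that in the Hk1 share, -3.73, was -2.48 without control replicate 3. The order of the isozymes depended on the length scaling. In read counts not scaled by length, Hk3 held 43.8% in cKO cells and 38.4% in control cells, and Hk1 41.5% and 45.7%. Pfkl then held 42.4% in cKO cells and 46.1% in control cells, and Pfkp 48.2% and 44.3%.

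Aldoa held nearly all aldolase transcripts, 98.6% ± 0.111 in cKO cells and 98.7% ± 0.0743 in control cells. Eno1 held 81.9% ± 0.578 of enolase transcripts in cKO cells and 83.0% ± 0.357 in control cells, of which the part assigned to Eno1b is uncertain. Neither the Aldoa nor the Eno1 shares overlapped between genotypes. Ldha held 82.6% ± 1.83 of lactate dehydrogenase transcripts in cKO cells and 81.4% ± 1.75 in control cells, with overlap. The difference of 1.20 percentage points ran from 0.24 without control replicate 3 to 2.21 without cKO replicate 3, and that of Aldoa, -0.17, was -0.11 without cKO replicate 3. With 3 libraries against 3, the two-sided exact permutation test cannot go below p = 0.1, so no share could pass at this size; the 6 member shares had adjusted p of 0.2 to 0.5.

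**Figure D4:**
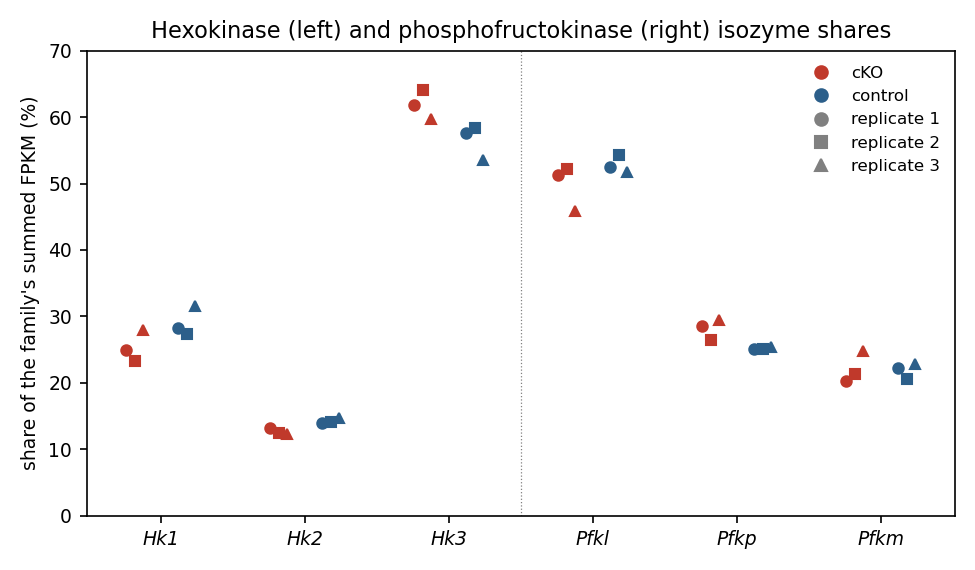
Share of the family's summed FPKM in percent (y axis, from 0) for 3 hexokinases and 3 phosphofructokinases in each library, cKO left of control; symbols mark replicates. Hk3 takes over 50% of the hexokinase FPKM in every library, Hk2 is lower and Hk3 higher in cKO without overlap, and the Pfkm points overlap.

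Genes that feed glucose in and carry lactate out had no call. Of 9 transport genes tested, 0 passed in edgeR, 4 had an unadjusted p below 0.05 and 1 passed in DESeq2; 6 were negative, with a median of -0.18. Slc2a1, the glucose transporter GLUT1, had 78.5, 82.8 and 84.1 CPM in cKO libraries and 92.97, 95.6 and 90.0 CPM in control libraries. The groups did not overlap at -0.18 ± 0.06 (adjusted p = 0.127). Slc2a3, the glucose transporter GLUT3, was scarce, at 2.32, 3.99 and 2.40 CPM in cKO libraries and 1.902, 1.69 and 1.27 CPM in control libraries, and it was higher in each cKO library at 0.84 ± 0.27 (adjusted p = 0.133), a value that was 0.54 (adjusted p = 0.357) without cKO replicate 2. Slc16a3, the lactate exporter MCT4, picked here for its role and after its values were seen, was at -0.28 ± 0.09 (adjusted p = 0.142).

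The enzymes that set the level of fructose bisphosphate, and those that use pyruvate, had no call either. Of 6 genes of the first kind, 0 passed in edgeR or DESeq2 and 1 had an unadjusted p below 0.05; Pfkfb4, which makes and breaks the activator of phosphofructokinase, was at 0.26 ± 0.10 (adjusted p = 0.225; 0.15 without cKO replicate 2 and 0.17 without control replicate 3) and G6pc3, a glucose phosphatase, at -0.12 ± 0.08 (adjusted p = 0.522; -0.059 without control replicate 3 and -0.032 with the length trend removed). Of 16 pyruvate genes, 0 passed in edgeR, 7 had an unadjusted p below 0.05, 2 passed in DESeq2, and 12 were negative with a median of -0.16. Mpc2, a subunit of the carrier that takes pyruvate into mitochondria, had 16.0, 15.4 and 16.8 CPM in cKO libraries and 20.02, 20.5 and 22.3 CPM in control libraries. It missed the threshold narrowly at -0.38 ± 0.09 (adjusted p = 0.0510, edgeR), and passed in DESeq2 at 0.00990. Dlat, the acetyltransferase of pyruvate dehydrogenase, was at -0.32 ± 0.09 (adjusted p = 0.118), with overlapping groups.

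Among 14 genes of the branches from glycolysis, Ugp2 fell and none rose in edgeR, and 11 were negative, with a median of -0.14. In this list 6 genes had an unadjusted p below 0.05 and 2 passed in DESeq2. Ugp2, which makes the UDP-glucose used for glycogen and glycosylation, had 62.1, 69.6 and 68.8 CPM in cKO libraries and 80.9, 83.0 and 81.2 CPM in control libraries. It fell by 0.29 ± 0.06 in log2 units in edgeR (adjusted p = 0.0333), but the call was lost with the length trend removed (0.0652) and without cKO replicate 1 (0.201), control replicate 1 (0.109), control replicate 2 (0.0977) or control replicate 3 (0.120). Gpd1, the cytosolic glycerol phosphate dehydrogenase, had 5.66, 3.90 and 3.92 CPM in cKO libraries and 2.29, 2.69 and 2.77 CPM in control libraries. It was higher without overlap, at 0.80 ± 0.21 (adjusted p = 0.0655, edgeR; 0.0167 in DESeq2).

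Genes that control the transcription of the pathway had no call: of 8 tested, 0 passed in edgeR, 2 had an unadjusted p below 0.05, 1 passed in DESeq2, and 3 were negative with a median of 0.02. Hif1a, the oxygen-regulated subunit of hypoxia-inducible factor, which is set mainly through protein stability, had 201, 172 and 191 CPM in cKO libraries and 211, 229 and 236 CPM in control libraries. It lay lower without overlap at -0.26 ± 0.07 (adjusted p = 0.0731, edgeR; 0.0154 in DESeq2). Mlx, the partner of the glucose-sensing factors, was at -0.18 ± 0.08 (adjusted p = 0.254; -0.081 with the length trend removed).

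Of 14 targets of hypoxia-inducible factor outside glycolysis, 1 fell and none rose in edgeR, with 8 negative and a median of -0.03. In this list 3 genes had an unadjusted p below 0.05 and 1 passed in DESeq2. The gene that fell was Bnip3, a mitophagy receptor, with 32.1, 32.4 and 30.5 CPM in cKO libraries and 39.4, 40.2 and 41.6 CPM in control libraries, a change of -0.35 ± 0.07 (adjusted p = 0.0236, edgeR). Its call was lost with the length trend removed (0.0683) and without cKO replicate 1 (0.126), control replicate 1 (0.0783), control replicate 2 (0.0671) or control replicate 3 (0.118). Ndrg1, a stress-induced gene, was at 0.17 ± 0.06 (adjusted p = 0.181).

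The TCA cycle, which burns the carbon of pyruvate in mitochondria, was read for comparison. All 17 of its genes tested were negative with a median of -0.23. In edgeR 4 were called lower and 12 had an unadjusted p below 0.05, and 10 had no overlap between genotypes. Of all genes, 1.06% were called lower, 8.79% had an unadjusted p below 0.05 with cKO lower, and 11.4% lay lower without overlap. Of the 10 members the same counts were 1, 5 and 5, with a median of -0.17. DESeq2 called 6 of the 17 genes and 3 of the 10 members, and 5.19% of all genes. The difference between the lists was not tested. The 4 that fell were Idh3a, a subunit of isocitrate dehydrogenase, at -0.36 ± 0.08 (edgeR adjusted p of 0.0414), and 3 subunits of succinate dehydrogenase: Sdhb at -0.43 ± 0.07 (0.0129), Sdhc at -0.31 ± 0.07 (0.0326) and Sdhd at -0.25 ± 0.06 (0.0495). All 4 calls were lost without cKO replicate 1 (adjusted p of 0.123 to 0.264), control replicate 1 (0.0878 to 0.151) or control replicate 3 (0.0767 to 0.166). Without cKO replicate 2 those of Idh3a (0.0993), Sdhc (0.0533) and Sdhd (0.0611) were lost, and without control replicate 2 those of Idh3a (0.0727) and Sdhd (0.0955). With the length trend removed, Sdhc (0.0560) and Sdhd (0.261, at -0.13) did not pass. Sdhd also missed the threshold with RLE, upper-quartile or library-total scaling (0.0501 to 0.0738), and Idh3a with library totals (0.0622).

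The shift of the members was not carried by a single cKO library, and its size differed between them. Against the mean of the control libraries, the median member stood at -0.20, -0.11 and -0.18 (log2) in cKO replicates 1, 2 and 3 and at 0.04, -0.03 and -0.02 in control replicates 1, 2 and 3. In cKO replicates 1, 2 and 3, 8, 6 and 8 of the 10 members were below the lowest control library. The count for cKO replicate 3 includes the Gapdh row, which does not measure Gapdh here. The share of all genes below the control range was not computed for single libraries. cKO replicate 2 had the highest level of the cKO libraries for Pfkl, Pgk1, Eno1, Ldha and Tpi1. It also had the highest summed stroma markers, with 3915, 4974 and 3096 CPM in cKO replicates 1, 2 and 3 and 3310 to 3861 CPM in control libraries, of which Col1a1 made up 57.6% and none of which was called; the part of stroma in the members' values was not tested. Dropping that library took the members' median to -0.22.

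**Figure D5:**
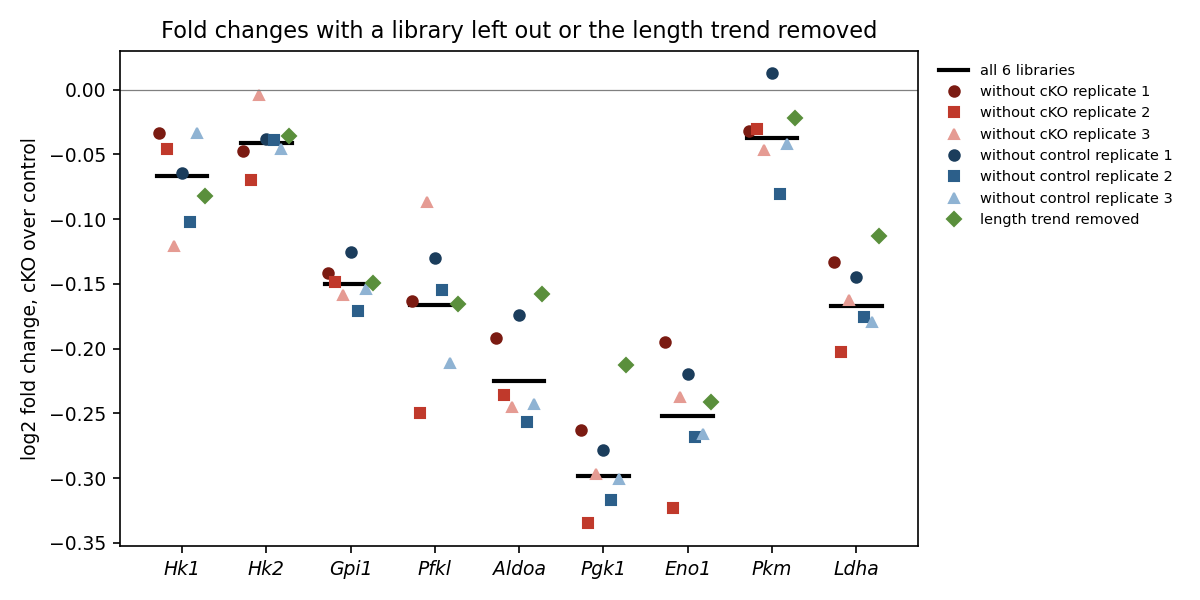
Log2 fold change of cKO over control (y axis) for the 9 members other than Gapdh: black lines use all 6 libraries, red and blue symbols leave out 1 cKO or control library and green diamonds have the trend over gene length removed. All but Pkm stay below 0 throughout, and Pkm reaches 0.013 without control replicate 1.

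Other markers moved with genotype as well. Summed dendritic cell markers were 521 to 584 CPM in cKO libraries and 315 to 377 CPM in control libraries, of which Itgax, called higher, made up 99.1%. Summed megakaryocyte markers were 32.9 to 40.3 CPM in cKO libraries and 44.2 to 58.3 CPM in control libraries. Pf4, called lower, made up 92.6% of that sum. Erythroid markers summed to at most 1.74 CPM in any library. T and NK cell markers summed to at most 0.442 CPM and mast cell markers to at most 1.04 CPM. Only 1 of 6 T and NK cell markers and 2 of 5 mast cell markers had a row, and Cd3e and Mcpt4 had none. B cell markers reached 14.6 CPM, nearly all of it Ebf1, and endothelial markers 5.78 CPM.

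The genes whose profile over the 6 libraries was most like the mean of the members were named by the smallest root mean square distance of centred log2 CPM, over 9574 genes with a mean of at least 3 log2 CPM. With Gapdh left out of the mean, these were Psmd8, Cops5, Tpt1, Psmb6 and Rps9, at distances of 0.00843 to 0.0181. The closest, Psmd8, had 196, 210 and 199 CPM in cKO libraries and 233, 218 and 219 CPM in control libraries. Ldha was the member nearest to the mean, at 0.0165, and Pfkl the farthest, at 0.0894. With Gapdh included, its value in control replicate 2 pulled the mean, and the nearest genes became Nip7, Ndufv3, Cnih1, Hspa5 and Heatr3, at 0.0236 to 0.0320.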

How the data were processed

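Libraries were made by oligo(dT) selection with dUTP marking of the strand, per the labels' protocols. The submitters' processing notes name cutadapt 1.9 and mm10; for the aligner, counting program, annotation and strand setting, nothing is given in the sources used here. The deposited files hold raw read counts per gene, and FPKM from the authors' own processing, as the file headers name them. FPKM served only for levels between genes and for isozyme shares.

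Counts were filtered with filterByExpr (minimum count 10, minimum total 15), scaled by TMM and tested by the robust quasi-likelihood F test of edgeR 4.0.16 in R 4.3.3, with all 3 cKO and 3 control libraries in one fit. Benjamini-Hochberg adjustment ran over all 16843 genes, and calls were made at an adjusted p below 0.05. The SE is the log2 fold change over the square root of F, and 95% intervals are 1.96 SE either way. Alternatives were DESeq2 1.42.0, limma-voom with sample weights (limma 3.58.1), other scalings and filters, a replicate block, removal of a per-library trend over gene length, and leaving out each library. Merging near-identical copies (blastn 2.17.0) was added after the data were seen. Steps were tested on simulated data.

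The members and lists were chosen with earlier results of these data known. All members were named, with Slc11a2 and Lyz2, isozymes and missing steps of at least 1 FPKM, and, in each other list, the called genes or, where fewer than 2 passed, the smallest unadjusted p up to 2 genes.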

Additional observations from a re-analysis of the deposited data

How the results depend on the processing

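The members called lower numbered 1 in the reported test, 3 with DESeq2 (Aldoa, Pgk1 and Eno1; 2.64% of all genes were called lower), 3 with limma-voom (2.10%) and 0 to 2 with a library left out; none was called higher under any alternative. The members' median of -0.17 ran from -0.22 (without cKO replicate 2) to -0.14 with a library left out, and it stayed negative under every alternative run. Other pathway genes are those of the lists above outside the TCA cycle, with 16, 9, 6, 16, 14, 8 and 14 genes tested. Those called lower numbered 2 in the reported test, where 1.06% of all genes were called lower. They numbered 8 with DESeq2 (2.64% of all genes), 4 with limma-voom (2.10%) and 8 with the replicate block (2.12%). With the length trend removed there was 1 (0.665%), and with a minimum count of 50 there were 3 (1.49%). With a library left out they numbered 0 to 7, where 0.116% to 1.79% of all genes were called lower. Other pathway genes called higher numbered 0 in the reported test, where 1.36% of all genes were called higher. They numbered 3 with DESeq2 (2.55%), 1 with limma-voom (2.08%) and 1 with a minimum count of 50 (2.14%). There were 2 with the replicate block (1.88%), 1 with the length trend removed (1.52%) and 0 with any library left out (0.225% to 1.80%).

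Some genes reversed sign, and the cause was not tested. With a library left out, Gapdh ran from -1.12 to 0.047 (positive without control replicate 2), Pkm from -0.081 to 0.013 (without control replicate 1), Aldoc from -0.13 to 0.027 (without control replicate 1), Pfkm from -0.13 to 0.012 (without cKO replicate 1), Bpgm from -0.17 to 0.013 (without control replicate 2) and Pgam2 from -0.12 to 0.19 (negative without cKO replicate 1, control replicate 2 or control replicate 3); Aldoc was also at 0.010 with the length trend removed.

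The deviations of same-numbered libraries correlated at -0.07, 0.045 and 0.263 for replicates 1, 2 and 3. Those of replicate 3 correlated best with each other, while cKO replicates 1 and 2 correlated best with control replicates 2 and 1, so the numbers were not taken to pair the libraries. The replicate block gave 673 calls against 407 over all genes and changed no call among the members; DESeq2 gave 874 and limma-voom 704. No member had fewer than 1478 reads in any library.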
